A study of Rattus norvegicus with 60 samples.

Results

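Permethrin is a pyrethroid insecticide without an α-cyano group. It slows the closing of voltage-gated sodium channels in nerve membranes, so that neurons can fire repeatedly, and neurons that fire switch on a set of immediate early genes within minutes. The lowest permethrin dose of the study, 1 mg/kg, lies below the dose that its methods name as having no effect on motor behaviour. The comparison of this dose with vehicle asks what an exposure without behavioural signs does to the transcripts of the frontal cortex, the front part of the cerebral cortex.

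The arrays compared were those labelled permethrin 1 mg/kg at 6 h (8 rats) and vehicle at 6 h (12 rats), 20 of the 60 arrays in the series, and all 31042 probe sets were used. Adult male Long-Evans rats aged 62 to 64 days received a single oral gavage of permethrin in corn oil or of corn oil alone and were killed 6 h later. Each array held RNA of 1 rat. The remaining arrays, 8 each at 10 and 100 mg/kg permethrin and at 0.3, 1 and 3 mg/kg deltamethrin, shared 1 fit with them, which sets the estimate of the spread, and the other permethrin doses were set against 1 mg/kg. Values were log2 RMA values from Affymetrix rat genome arrays, so a difference of 1 is a doubling of signal. RMA tends to compress differences of dim probe sets. Every fold change below is the mean of the permethrin 1 mg/kg rats minus the mean of the vehicle rats on the log2 scale, with its standard error (SE) from limma.

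The arrays carried structure that the labels do not name. The first principal component of the residuals, after the mean of each treatment was taken off, held 59.6% of their variance and set 14 arrays apart from 46. The 14-array group held 2 of the 8 permethrin 1 mg/kg rats (rats 1 and 2) and 2 of the 12 vehicle rats (rats 4 and 5). The residuals also held a second split, into 24 arrays (3 of the permethrin 1 mg/kg rats and 6 vehicle rats) and 36 arrays (5 and 6). The group sizes of this second split are those that the methods give for the cohorts of the array study, which were exposed on separate days. The 24 arrays were replicates 1 to 6 of vehicle and 1 to 3 of every dosed group. All arrays of the 14-array group lay among these 24. Within the 46-array group, permethrin 1 mg/kg rat 3 and vehicle rats 1, 2, 3 and 6 were of the 24 arrays, so dose and second split are partly mixed there. The labels name no cohort, so the groups of 14 and 46 are called array groups, the second split is called by its sizes, and both served only as technical batches. In addition, the array labelled permethrin 1 mg/kg rat 2 stood apart in Xist, the RNA that coats the inactive X chromosome in female cells. By the probe set 1374684_at Xist had a log2 value of 7.65 on this array, against 4.11 to 4.51 on the other 59 arrays. The Y-linked transcript Eif2s3y had a log2 value of 5.39 there, against 6.58 to 8.40 in the other 7 rats at this dose, but the other 13 arrays of the 14-array group also lay low, between 5.21 and 7.06. Y-linked Uty did not set the array apart: its brighter probe set had 6.35, against 6.35 to 8.18 in the other 7 rats, and its dimmer one 5.92, against 5.73 to 6.07. The label gives this rat as male, and results are therefore also given without it.

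No probe set passed an adjusted p under 0.05 (Benjamini-Hochberg, limma) between the permethrin 1 mg/kg and vehicle rats: 0 of 31042, or 0%, with a lowest adjusted p of 0.9999. At an unadjusted p under 0.05 there were 367 probe sets, or 1.18% of those tested, of which 155 (0.499%) had higher and 212 (0.683%) had lower means at 1 mg/kg. With each array centred on its median, 265 were higher and 124 lower, so the balance of directions depends on the scaling. Without the array labelled permethrin rat 2, 221 probe sets had an unadjusted p under 0.05 (0.712%), and again 0 passed the adjusted threshold. Within the 46-array group (6 permethrin 1 mg/kg rats and 10 vehicle rats) the unadjusted count was 419 (1.35%), with 0 adjusted. Of the 367 probe sets, 89 had the same direction and an unadjusted p under 0.05 in that group too, which is 24.3% of the 367 and 21.2% of the 419. The rats of that group are among those of the whole comparison, so this overlap is not a separate test.

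The differences were small. The median SE of a fold change was 0.0818, and the fold changes ran from -0.79 to 0.60. In no probe set did all 8 permethrin rats lie above, or all 8 below, all 12 vehicle rats. As no probe set passed the adjusted threshold, the genes below are those with the lowest unadjusted p or members of gene lists, and their values are descriptions that did not pass the test over all probe sets.

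**Figure D1:**
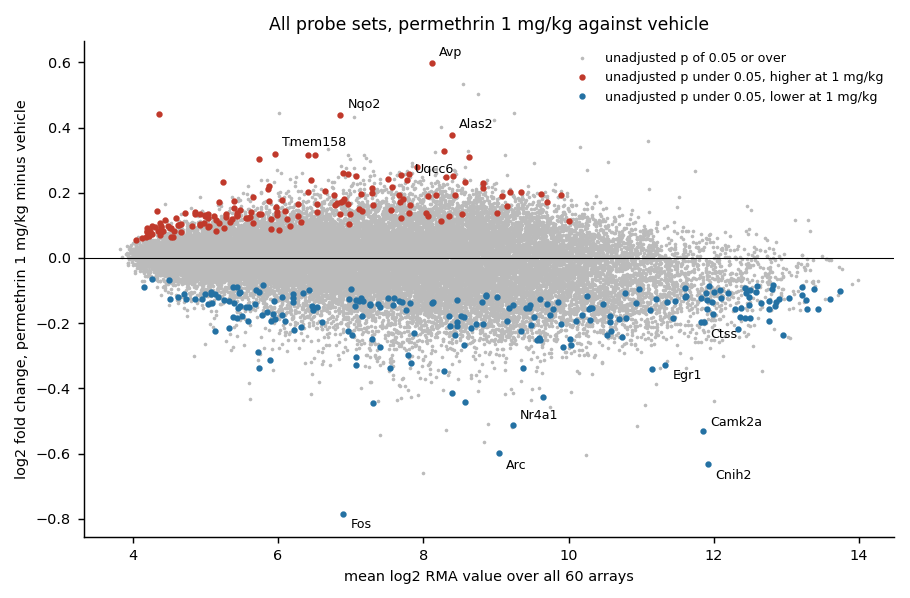
Each point is 1 of 31042 probe sets, with its mean log2 RMA value over all 60 arrays on the x axis and the log2 fold change of permethrin 1 mg/kg minus vehicle on the y axis. Colour marks the 155 higher and 212 lower probe sets with an unadjusted p under 0.05, and none of them passed the adjusted threshold. Fos (-0.79), Cnih2 (-0.63) and Arc (-0.60) are the lowest of the labelled genes, and Avp (0.60) is the highest.

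Among the lower probe sets, immediate early genes stood out by size. These genes encode transcription factors and synaptic proteins that neurons make soon after they are excited. Of 30 listed, 28 were measured, and 6 of them (21.4%) had lower means at 1 mg/kg with an unadjusted p under 0.05, beside 0.683% of all probe sets, while 0 had higher means. The 6 were Nr4a1, Nr4a3, Egr1, Arc, Klf4 and Klf10. The median fold change of the 28 genes was -0.07, against -0.0014 over all probe sets, and 21 of the 28 were below 0. The genes of a list were measured in the same rats, so they are not separate observations. The list was chosen with earlier results of these data known, so its share is a description and not a test. Each gene is taken by its brightest probe set, which the share over all probe sets does not match. Among the 15521 brighter probe sets 115 were lower at that threshold, and 6 of the 19 list genes there. Lower RNA per cell and fewer cells of a type cannot be told apart in RNA from whole tissue.

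Of the 6 genes, Nr4a1, Egr1 and Klf4 had a promoter in the table used. The 250 bases before the start sites of Nr4a1 and Egr1 are given as examples of the elements that immediate early genes can carry, from RefSeq (rat build GRCr8), 5′ to 3′ on the gene's strand, with capitals for TGACG on either strand, the half-site of the cAMP response element that CREB binds, and for the CArG box that serum response factor binds.
Nr4a1, chr7:134259888-134260137, plus strand: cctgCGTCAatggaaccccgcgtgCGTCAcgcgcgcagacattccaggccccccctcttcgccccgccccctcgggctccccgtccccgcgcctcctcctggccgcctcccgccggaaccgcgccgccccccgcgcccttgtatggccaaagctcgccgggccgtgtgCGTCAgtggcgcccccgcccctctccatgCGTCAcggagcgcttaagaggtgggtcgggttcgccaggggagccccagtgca
Egr1, chr18:26736828-26737077, plus strand: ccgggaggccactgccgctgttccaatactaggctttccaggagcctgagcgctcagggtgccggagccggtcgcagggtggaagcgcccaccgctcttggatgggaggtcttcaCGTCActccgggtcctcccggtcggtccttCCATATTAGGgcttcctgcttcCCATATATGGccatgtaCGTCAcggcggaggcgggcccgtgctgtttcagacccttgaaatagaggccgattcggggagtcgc
Nr4a1 held 4 half-sites and 0 CArG boxes in this window, and Egr1 held 2 half-sites and 2 CArG boxes. Klf4 held 0 of either. Of the 28 measured immediate early genes, 20 had a promoter in the table, and 12 of these (60.0%) held the half-site, beside 18.2% of all 33469 promoters of the same length. The full element TGACGTCA, which contains the half-site on both strands, was in 4 of the 20 (20.0%, beside 1.59%), and the CArG box in 3 (15.0%, beside 1.5%). These are matches of letters and say nothing of binding in these rats.

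Nr4a1 (Nur77, an orphan nuclear receptor) had the lowest p of the list. Its log2 values ran from 8.56 to 9.28 in the permethrin 1 mg/kg rats (median 9.03), against 8.85 to 10.82 in the vehicle rats (median 9.32). All 8 permethrin rats lay below the vehicle median, and 6 of the 12 vehicle rats lay above the highest permethrin rat. The fold change was -0.51 (SE 0.175, unadjusted p = 0.00512 and adjusted p = 0.9999, limma). It was -0.54 within the 46-array group and -0.55 without permethrin rat 2.

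Arc, a synaptic protein that is made at active synapses, behaved alike. Its log2 values ran from 8.20 to 9.14 at 1 mg/kg (median 8.80), against 8.41 to 11.31 in vehicle rats (median 9.16). Again all 8 permethrin rats lay below the vehicle median, and 7 vehicle rats lay above the highest of them. Arc had a fold change of -0.60 (SE 0.265, unadjusted p = 0.0280). Leaving out vehicle rat 6, the highest rat, brought it to -0.42 with an unadjusted p of 0.0853, and within the 46-array group it was -0.55 with an unadjusted p of 0.0504.

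Egr1, a zinc finger transcription factor, had log2 values of 10.90 to 11.24 at 1 mg/kg (median 11.04) and of 11.04 to 12.10 in vehicle rats (median 11.28), with a fold change of -0.33 (SE 0.145, unadjusted p = 0.0274). It was -0.21 within the 46-array group (unadjusted p = 0.108), -0.89 within the 14-array group and -0.26 without vehicle rat 4 (unadjusted p = 0.0678). The permethrin rats were closely grouped, with an SD of 0.114 (n = 8), while the vehicle rats had an SD of 0.372 (n = 12). The same held for Arc (SD 0.307 at 1 mg/kg and 0.935 in vehicle rats) and for Nr4a1 (0.230 and 0.592). Vehicle rat 6 was the highest vehicle rat for Nr4a1, Nr4a3, Arc, Klf4 and Klf10 and the second highest for Egr1. The 3 highest vehicle rats were rats 4, 6 and 5 for Egr1 and rats 6, 5 and 2 for Arc and Nr4a1. All of these were of the 24 arrays, which held 6 of the 12 vehicle rats and 3 of the 8 permethrin rats. The part of this split in the SDs was not tested.

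Fos, the founding member of the class, is measured by a pair of probe sets that differed. By 1375043_at its log2 values ran from 5.49 to 7.15 at 1 mg/kg (median 6.37) and from 5.72 to 8.50 in vehicle rats (median 7.07). The ranges overlapped over most of their length, although 7 of the 8 permethrin rats lay below the vehicle median. The fold change of this probe set was -0.79 (SE 0.317, unadjusted p = 0.0164), the most negative of all probe sets, and it was -0.73 without permethrin rat 2. Within the 46-array group it was -0.51 (unadjusted p = 0.178), and within the 14-array group -1.87. Within the 24 arrays it was -1.48 and within the 36 it was -0.32. By the brighter probe set 1371283_at, which represents Fos in the list, it was 0.10 (SE 0.0823, unadjusted p = 0.221). The study also measured Fos and Egr1 by qRT-PCR at this dose and time in a separate cohort. There it reported no change of either gene with permethrin, and little likeness to the array values at the lower doses.

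The remaining calls of the list were smaller. Nr4a3, a relative of Nr4a1, had a fold change of -0.34 (SE 0.141, unadjusted p = 0.0202). The zinc finger factors Klf4 and Klf10 had fold changes of -0.25 (unadjusted p = 0.0390) and -0.20 (unadjusted p = 0.0429). Within the 46-array group these 3 genes stood at -0.23, -0.20 and -0.14, each with an unadjusted p above 0.05. Egr2 had a fold change of -0.34 and Junb of -0.20, neither with an unadjusted p under 0.05. Jun, Fosb, Nr4a2 and Per1 had fold changes between -0.03 and -0.0049.

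**Figure D2:**
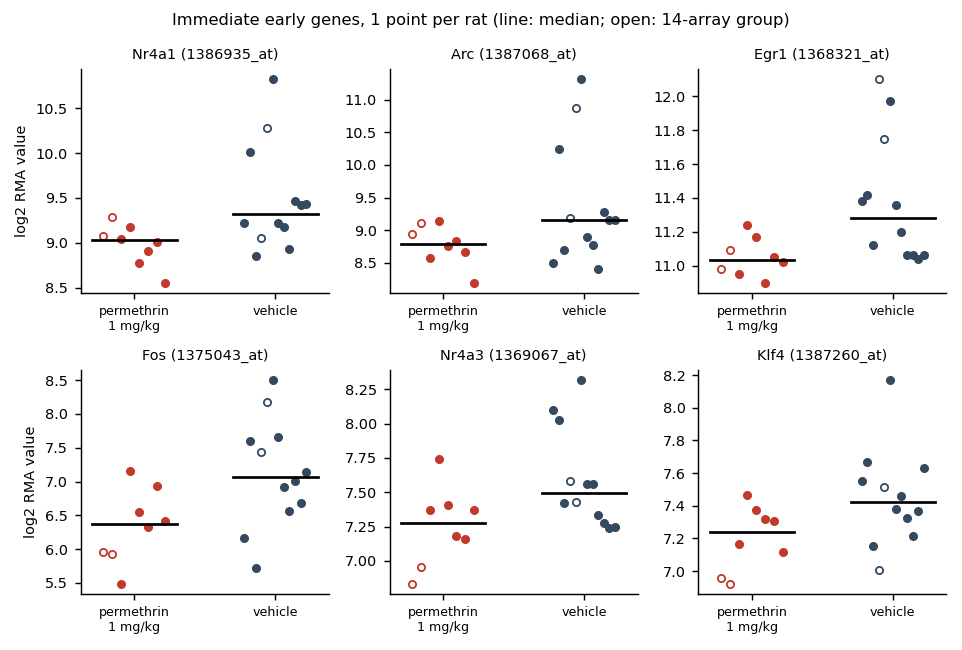
Each point is the log2 RMA value of 1 rat for 6 immediate early gene probe sets, with the 8 permethrin 1 mg/kg rats left of the 12 vehicle rats, lines at the medians and open points for the 14-array group. For Arc and for Nr4a1 3 vehicle rats lie above 10, while no permethrin rat exceeds 9.14 for Arc or 9.28 for Nr4a1.

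The count of immediate early genes rested in part on single rats. With 1 of the 20 rats left out at a time, the count of lower members with an unadjusted p under 0.05 ran from 1 to 6 of 28, with 0 higher in each case. Without vehicle rat 6 it was 1, and without vehicle rat 2 or permethrin rat 1 it was 3. Without permethrin rat 2 it was 4, and the list median was -0.12. Within the 46-array group, where dose and the second split are partly mixed, 3 were lower, 0 higher, and the median was -0.13. Only 1 of the 6 genes, Nr4a1, was among these 3. The other two, Junb (-0.33, unadjusted p = 0.0258) and Ier2 (-0.20, unadjusted p = 0.0424), are named after their values were seen. The median of the list stayed below 0 in each of these.

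The differences of the 6 genes were larger within the 24 arrays than within the 36. Arc differed by -0.93 within the 24 arrays and by -0.23 within the 36, Egr1 by -0.62 and -0.06, and Nr4a3 by -0.76 and 0.0040. Nr4a1 differed by -0.57 within the 24 arrays (unadjusted p = 0.0891) and by -0.39 within the 36 (unadjusted p = 0.0301). Of the 28 genes, 3 were lower at an unadjusted p under 0.05 within the 24 arrays and 1, Nr4a1, within the 36, with 0 higher in both. The list median was -0.04 within the 24 arrays and -0.06 within the 36. Whether the effect differed between the 24 and the 36 arrays was not tested. Averaged over the 28 genes, the log2 level per rat ran from 7.82 to 8.09 at 1 mg/kg (median 7.91) and from 7.82 to 8.42 in vehicle rats (median 7.95), and the upper ends lay farther apart than the medians.

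The 1 mg/kg rats were also set against the rats at the higher permethrin doses. Fos (1375043_at) had a mean log2 value of 7.13 in vehicle rats, 6.35 at 1 mg/kg, 6.41 at 10 mg/kg and 7.79 at 100 mg/kg. Its fold change of 1 against 100 mg/kg was -1.45 (SE 0.348, unadjusted p = 0.000110), which did not pass the adjustment (adjusted p = 0.714, limma). Between 1 and 10 mg/kg the difference of Fos was -0.07 with an SE of 0.348, less than its error.

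Egr1 had mean log2 values of 11.05 at 1 mg/kg, beside 11.38 in vehicle rats, and differed from 100 mg/kg by -0.60 (unadjusted p = 0.000392). Nr4a3 differed from 100 mg/kg by -0.60 (1369067_at, unadjusted p = 0.000268) and by -0.28 with its second probe set 1393389_at (unadjusted p = 0.000115). Bdnf, the neurotrophin made by active neurons, differed by -0.60 (1368677_at, unadjusted p = 0.000352), and its second probe set 1368678_at by -0.06. Dusp6, a phosphatase that ends ERK signalling, differed by -0.38 (unadjusted p = 0.000658). Against vehicle, Dusp6 had a fold change of -0.25 at 1 mg/kg (SE 0.0953, unadjusted p = 0.0112). It was -0.19 without permethrin rat 2 (unadjusted p = 0.0508) and -0.16 within the 46-array group (unadjusted p = 0.121).

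Of the 28 immediate early genes, 6 were lower at 1 than at 100 mg/kg with an unadjusted p under 0.05 and 0 higher, beside 1.08% of all probe sets (336, of which 241 lower). Against 10 mg/kg it was 0 of 28, beside 2.52% of all probe sets (782, of which 563 lower). The comparisons of 1 mg/kg with vehicle and with 100 mg/kg share the 8 rats at 1 mg/kg, so they are not independent of each other.

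**Figure D3:**
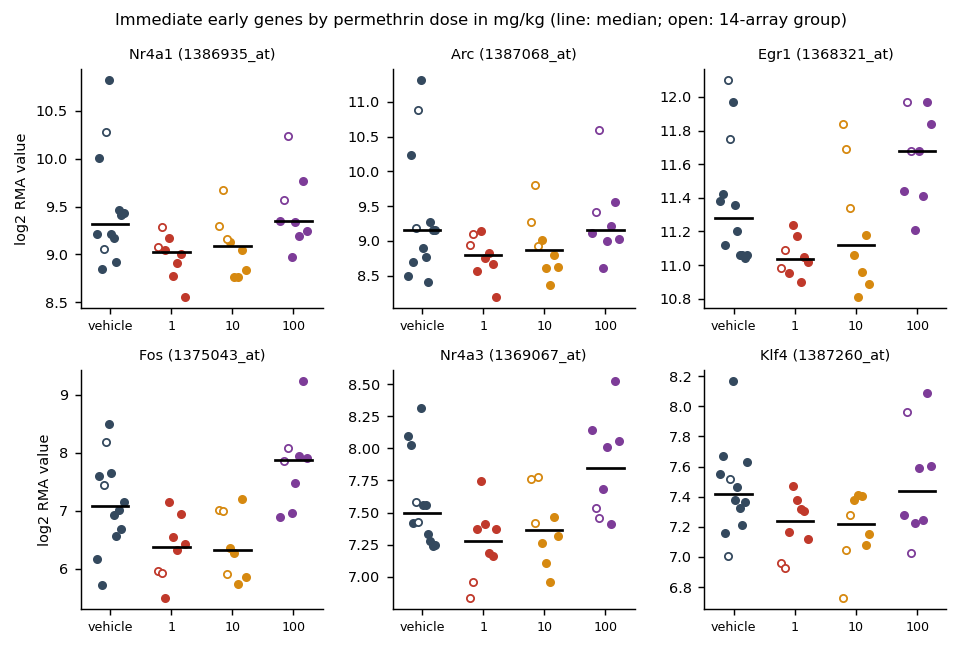
Each point is the log2 RMA value of 1 rat, by permethrin dose in mg/kg with vehicle at the low end of the axis, with lines at the medians and open points for the 14-array group. The medians of Fos are 7.07 in vehicle rats, 6.37 at 1 mg/kg, 6.32 at 10 mg/kg and 7.88 at 100 mg/kg.

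Over all probe sets, 1 passed the adjusted threshold between 1 and 100 mg/kg, or 0.00322%, and 0 (0%) between 1 and 10 mg/kg. It was 1393119_at, which has no symbol in the annotation used. Its log2 values ran from 7.99 to 8.55 at 1 mg/kg and from 8.48 to 9.80 at 100 mg/kg, beside a mean of 8.44 in vehicle rats. The fold change was -0.73 (SE 0.129, adjusted p = 0.0146, limma), and against vehicle it was -0.18 (unadjusted p = 0.136). With 1 rat of these groups left out at a time, the adjusted p ran from 0.00180 to 0.114. It was above 0.05 without permethrin 1 mg/kg rat 2 (0.0706) or rat 3 (0.0848), and without rat 2 (0.0639), rat 7 (0.114) or rat 8 (0.0790) at 100 mg/kg.

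Heg1, a membrane protein of endothelial junctions, had the next lowest p against 100 mg/kg. By 1373415_at it had mean log2 values of 9.21 at 1 mg/kg and 9.60 at 100 mg/kg (fold change -0.39, SE 0.0872, unadjusted p = 3.98e-05). By 1391901_at the fold change was -0.35 (unadjusted p = 0.000175). Against vehicle the same probe sets differed by -0.07 and -0.08. Klc1, a light chain of the motor protein kinesin, was lower at 1 mg/kg than at 10 mg/kg by -0.15 (unadjusted p = 0.000382) and than at 100 mg/kg by -0.16 (unadjusted p = 0.000173), with a difference of -0.09 against vehicle. The lowest p against 10 mg/kg was that of Drp2, a relative of dystrophin, with a difference of -0.23 (unadjusted p = 0.000342). Ablim1, an actin-binding protein, differed from 10 mg/kg by -0.25 (unadjusted p = 0.000788) and Zfp697 by -0.24 (unadjusted p = 0.000824).

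The lowest p against vehicle belonged to 1386911_at, a bright probe set without a symbol, with a fold change of -0.13 (SE 0.0316, unadjusted p = 0.000138). Its log2 values ran from 13.01 to 13.27 at 1 mg/kg and from 13.19 to 13.40 in vehicle rats. Within the 46-array group the difference was -0.07. The named genes next in order were Ctss (cathepsin S, a protease of microglia), Scd2 (a fatty acid desaturase of brain) and Nr4a1. Ctss had log2 values of 11.29 to 11.90 at 1 mg/kg (median 11.70) and of 11.62 to 12.01 in vehicle rats (median 11.92). All 8 permethrin rats lay below the vehicle median, and 3 lay below the lowest vehicle rat. The fold change of Ctss was -0.19 (SE 0.0644, unadjusted p = 0.00379), and -0.14 without permethrin rat 2. Within the 46-array group it was -0.12 (unadjusted p = 0.0784, limma), and within the 14-array group -0.47. Ctss was the 1 lower gene among the 15 measured microglia markers at that threshold, while the median of these 15 was 0.04, with 3 below 0.

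The 12 named genes with the lowest p among the lower ones had fold changes between -0.09 and -0.51, and 7 of them had a mean log2 value above 11. Those 7 included Ywhag (a 14-3-3 protein), Aplp2 (a relative of the amyloid precursor protein), Ncald (neurocalcin, a neuronal calcium sensor), Rab6b and Arf3 (small GTPases of vesicle transport). Most of these differences were smaller within the 46-array group, where Ywhag stood at -0.05 instead of -0.15, Aplp2 at -0.06 instead of -0.17 and Ncald at -0.05 instead of -0.19. Without permethrin rat 2, Ncald had an unadjusted p of 0.0760. Among the 7761 brightest probe sets 106 were lower and 11 higher at an unadjusted p under 0.05, while within the 46-array group these counts were 22 and 34.

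Other genes of the 12 differed less between all arrays and that group. Chd3, an ATPase of the NuRD chromatin complex, had log2 values of 9.49 to 9.93 at 1 mg/kg and of 9.82 to 10.45 in vehicle rats, a fold change of -0.25 (SE 0.0876, unadjusted p = 0.00633) and -0.22 within the 46-array group. All 8 permethrin rats lay below the vehicle median of Chd3, and against 10 mg/kg the difference was -0.34 (unadjusted p = 0.000798). Chd3 differed from vehicle by -0.40 within the 24 arrays and by -0.12 within the 36. Runx1, a transcription factor of blood and microglia, had a fold change of -0.14, and -0.13 within the 46-array group. Tmem243, a membrane protein, had -0.18, and -0.21 within that group. Kiaa1958 had -0.15, and -0.16 within that group, with 6 of 8 permethrin rats below the lowest vehicle rat.

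Over all arrays, higher means were found mostly in dim probe sets. Of the 155 higher probe sets, 71 were among the 7761 dimmest and 11 among the 7761 brightest. The dimmest also held 38 lower ones. Within the 46-array group the dimmest held 57 higher and 97 lower, and the brightest 34 higher, so the balance in dim probe sets turned there. Igfbp3, which binds insulin-like growth factors, had log2 values of 7.73 to 8.10 at 1 mg/kg (median 7.85) and of 7.55 to 7.96 in vehicle rats (median 7.72). All 8 permethrin rats lay above the vehicle median, with a fold change of 0.16 (SE 0.0566, unadjusted p = 0.00618) and 0.14 without permethrin rat 2. That of Igfbp3 was 0.125 within the 46-array group, 0.30 within the 24 arrays and 0.06 within the 36.

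Dact3, an inhibitor of Wnt signalling, had log2 values of 5.15 to 5.59 at 1 mg/kg (median 5.28) and of 4.97 to 5.49 in vehicle rats (median 5.08), a fold change of 0.17 (SE 0.0600, unadjusted p = 0.00619). Within the 46-array group it was 0.18, and without permethrin rat 2 it was 0.13. Uqcc6, an assembly factor of respiratory complex III, had the largest fold change of the 12 higher genes with the lowest p, 0.24 (SE 0.0835, unadjusted p = 0.00604), which was 0.12 within the 46-array group. Rnls (renalase) had 0.16, Asb13 (a subunit of a ubiquitin ligase) 0.17, Rbm22 (a splicing factor) 0.19 and Cbfa2t2 (a transcriptional corepressor) 0.14. All 12 of these genes kept a higher mean without permethrin rat 2, and 7 of them kept an unadjusted p under 0.05. Without that rat Asb13 stood at 0.12 (unadjusted p = 0.0647) and Vnn1 (an enzyme that releases pantothenic acid) at 0.07 (unadjusted p = 0.0504). Ros1 (a receptor tyrosine kinase) stood at 0.09 (unadjusted p = 0.0838) and Ift46 (a protein of transport in cilia) at 0.16 (unadjusted p = 0.0552) without that rat. Tmem158, one of the largest higher fold changes at 0.32, stood at 0.19 without it (unadjusted p = 0.117). Xist was among the 12 by its probe set 1386785_a_at, where its fold change was 0.14 with, and 0.04 without, permethrin rat 2.

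The largest higher fold change was that of Avp, which encodes vasopressin, a peptide hormone best known from the hypothalamus. Avp had log2 values of 8.01 to 9.87 at 1 mg/kg (median 8.37), against 7.58 to 9.01 in vehicle rats (median 7.67). The 8 permethrin rats all lay above the vehicle median, and 7 of the 12 vehicle rats lay below the lowest permethrin rat. The fold change of Avp was 0.60 (SE 0.268, unadjusted p = 0.0300, adjusted p = 0.9999). It was 0.93 within the 46-array group and -0.73 between the 2 permethrin and 2 vehicle rats of the 14-array group. Within the 24 arrays it was -0.15 and within the 36 it was 1.13. Without permethrin rat 8, which had the highest value, it was 0.42 (unadjusted p = 0.121). Against 10 mg/kg the difference was 0.62 (unadjusted p = 0.0382) and against 100 mg/kg 0.58 (unadjusted p = 0.0513). Nqo2, a quinone reductase, had a fold change of 0.44 (SE 0.216, unadjusted p = 0.0479).

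**Figure D4:**
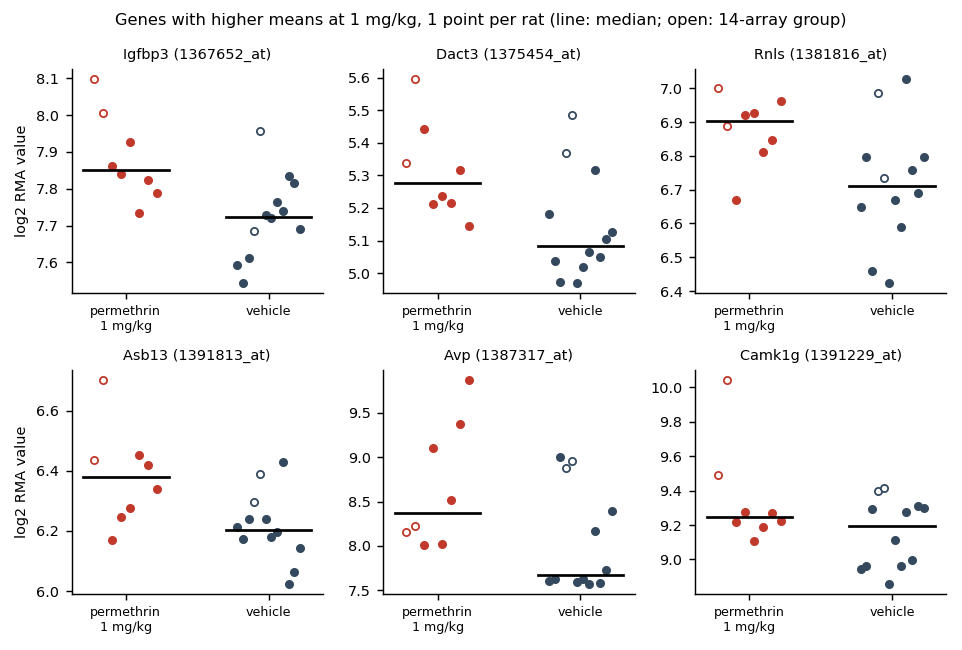
Each point is the log2 RMA value of 1 rat for 6 genes with higher means at 1 mg/kg, with the 8 permethrin 1 mg/kg rats left of the 12 vehicle rats, lines at the medians and open points for the 14-array group. For Igfbp3, Dact3 and Avp all 8 permethrin rats lie above the vehicle median, while for Camk1g 1 permethrin rat lies at 10.04 and the next at 9.49.

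For some genes with large fold changes the value rested wholly or in part on 1 rat. Cnih2, an auxiliary subunit of AMPA receptors, had a fold change of -0.63 (unadjusted p = 0.0376), with a log2 value of 7.21 in permethrin rat 1 against 11.73 or more in the other 7. Without that rat it was -0.03 (unadjusted p = 0.787). Camk1g, a calcium/calmodulin-dependent kinase, had a fold change of 0.20 (1391229_at, unadjusted p = 0.0462), and 0.10 without permethrin rat 2, which stood at 10.04. Its second probe set 1377518_at had 0.23 (unadjusted p = 0.157). Camk2a, the major kinase of excitatory synapses, had a fold change of -0.53 (SE 0.250, unadjusted p = 0.0380), and -0.34 without permethrin rat 8 (unadjusted p = 0.169). Its log2 values ran from 10.24 to 12.32 at 1 mg/kg and from 11.30 to 12.70 in vehicle rats. The vehicle rats of the 24 arrays had 12.34 to 12.70, and those of the 36 had 11.30 to 11.91. Camk2a differed by -0.78 within the 24 arrays and by -0.21 within the 36. Within the 46-array group the difference was -0.42 (unadjusted p = 0.125, limma).

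No call was made among the sodium channels, the primary targets of pyrethroids, or among the other channel and receptor lists. Of 13 measured voltage-gated sodium channel subunits 0 had an unadjusted p under 0.05, with fold changes of -0.25 to 0.12 and 95% intervals that lay between -0.71 and 0.48. Scn1a, Scn2a and Scn8a, the main pore-forming subunits of adult brain, had fold changes of -0.11 (SE 0.271), -0.07 (SE 0.274) and 0.02 (SE 0.114). The counts were also 0 for 17 calcium channel subunits, 13 chloride channels and chloride cotransporters, 25 potassium channels, 16 GABA receptor subunits and 11 AMPA and NMDA receptor subunits. The number of arrays limits the precision, and the intervals give the size of change that these data leave possible for the sodium channels.

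The counts were 0 for lists of response genes too. Among 20 genes of xenobiotic metabolism, 17 heat shock proteins and chaperones, 22 genes that glucocorticoids induce, 13 genes of monoamine synthesis and breakdown, 28 genes of branching morphogenesis and 17 circadian clock genes, 0 had an unadjusted p under 0.05. Of the genes the study followed by qRT-PCR, Ddc (aromatic amino acid decarboxylase) had fold changes of 0.06 and 0.05 by its probe sets, Gpd1 (glycerol-3-phosphate dehydrogenase) 0.08 and -0.02, and Fkbp5 (a co-chaperone of steroid receptors) -0.11 and -0.06. Rassf5 had 0.14 (SE 0.0812) and Hspb1, a small heat shock protein, 0.20 (SE 0.150). None of these had an unadjusted p under 0.05.

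In all, 24 of the 33 lists had no member with an unadjusted p under 0.05 and 9 had at least 1. Of the 596 genes on any list, 14 (2.35%) had one, beside 1.18% of all probe sets. With 1 probe set per gene it was 145 of 14217. The 14 include the 6 immediate early genes, and the lists were chosen with earlier results of these data known. The late activity-regulated genes had 1 higher (Camk1g) and 1 lower (Dusp6) of 21, and the calcium/calmodulin-dependent kinases 1 higher (Camk1g) and 1 lower (Camk2a) of 12. Camk2a was also the 1 call among 14 excitatory neuron markers. Endoplasmic reticulum stress genes had Atf4 at -0.12, the mitochondrial carriers Vdac1 at -0.10, the ribosomal proteins Rps6 at -0.18, and the blood cell markers Alas2 at 0.38. Without permethrin rat 2, Atf4 stood at -0.06, Vdac1 at -0.07, Rps6 at -0.08 and Alas2 at 0.24, each with an unadjusted p above 0.05.

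Splicing factors were shifted as a list without any member at that threshold. The median of 38 was -0.17, with 34 below 0, but it was -0.01 without permethrin rat 2 and near 0 within the 46-array group, where 19 were below 0. Averaged over the 38 genes, the log2 level ran from 8.46 to 9.92 in permethrin rats and from 8.96 to 9.94 in vehicle rats.

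Markers of cell types that the dissection could hold were compared in the same way. The 9 measured choroid plexus markers were all below 0, with a median of -0.21 and none at an unadjusted p under 0.05. Their mean log2 level ran from 7.35 to 7.89 in permethrin rats (median 7.48), against 7.31 to 9.35 in vehicle rats (median 7.51), so the vehicle group held the highest rat while the medians were close. Ttr, their defining transcript, had log2 values of 7.69 to 11.33 in permethrin rats and of 7.48 to 13.56 in vehicle rats. The part of such tissue in the results was not tested. The medians of the striatal, inhibitory neuron, astrocyte and oligodendrocyte lists lay between -0.04 and -0.00070, with 0 members at an unadjusted p under 0.05. The labelled cortex was rich in its defining transcripts: Slc17a7, the vesicular glutamate transporter of cortical pyramidal cells, had log2 values of 12.01 to 12.86 in permethrin rats (mean 12.37) and of 12.20 to 12.87 in vehicle rats (mean 12.58).

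**Figure D5:**
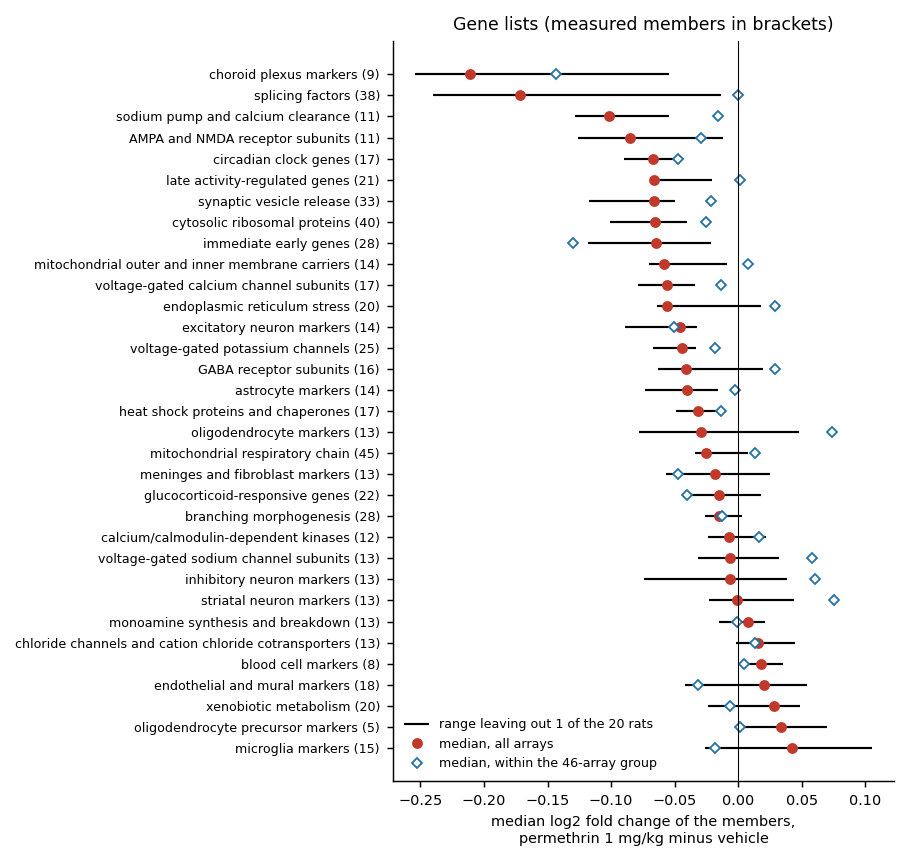
Red points are the median log2 fold change of the measured members of each gene list, permethrin 1 mg/kg minus vehicle, black lines the range of that median when 1 of the 20 rats is left out, and open diamonds the median within the 46-array group. The immediate early gene median lies at -0.07, and at -0.13 within that group, while the splicing factor median lies at -0.17, and near 0 within it.

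The spread between rats was compared as well. For each array the mean absolute distance from the mean of the other rats of its group, over all probe sets, averaged 0.229 at 1 mg/kg (range 0.123 to 0.427, SD 0.103, n = 8) and 0.180 in vehicle rats (range 0.136 to 0.325, SD 0.0572, n = 12). The difference of 0.0484 did not pass the test (exact permutation test over 125970 splits, two-sided, p = 0.199). Each distance depends on the other rats of its group and tends to be larger in a smaller group, so this p is approximate. When the distance was taken from rats of the same treatment and array group, the means were 0.148 at 1 mg/kg and 0.148 in vehicle rats. Without permethrin rat 1 the difference was 0.0208, and without permethrin rat 2 it was 0.00282.

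The effect of the dose differed between the array groups for 116 probe sets at an adjusted p under 0.05, or 0.374%, and for 9.37% of probe sets at an unadjusted p under 0.05 (interaction of treatment and array group in limma). This rests on 2 permethrin 1 mg/kg and 2 vehicle arrays in the 14-array group, and the array groups were taken from the same values, so the p-values are too small. The adjusted count was 309 without permethrin rat 1, 6 without permethrin rat 2 and 3 without vehicle rat 5. Atp2a2, the calcium pump of the endoplasmic reticulum, had a difference between permethrin and vehicle of -0.49 in the 14-array group and of 0.01 in the 46-array group (interaction adjusted p = 0.00178).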

How the data were processed

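Frontal cortex RNA of single rats was hybridised to Affymetrix rat genome arrays. The authors deposited log2 RMA values, which are background-corrected, quantile-normalized and summarised per probe set over all arrays. The labels give no version of RMA, and the methods name RMAExpress. The values were used as deposited, between 3.75 and 14.1, with array medians of 7.07 to 7.20. Their number limits the precision.

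Groups were taken from the labels. All 60 arrays entered 1 linear model with a mean per treatment (limma 3.58.1, R 4.3.3), and p-values were adjusted by Benjamini-Hochberg over the 31042 probe sets, with a threshold of 0.05. Of these, 20826 had 1 symbol in the platform annotation, 436 had several and 9780 had none, and only the first were named. Where a gene had several probe sets, the brightest stood for it in a list. Genes were named from the 12 with the lowest p in each direction, the 5 highest and 5 lowest fold changes among probe sets with an unadjusted p under 0.05, the 5 lowest p against each higher dose, the 9 genes followed by qRT-PCR, and in each list the lowest p and any member with an unadjusted p under 0.05. Further list members were named for their role, after their values were seen. The members and lists were chosen with earlier results of these data known. The fit was tested on simulated data. Alternatives were blocks for array groups and replicate numbers, subsets of arrays, covariates, other scalings and the leaving out of each rat. The spread of arrays was compared by an exact permutation test.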

Additional observations from a re-analysis of the deposited data

Results flagged for a closer look

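The 8 permethrin 1 mg/kg rats were searched for a distant rat in 119 named probe sets and in the spread of arrays, 120 tests in all. For unselected values chance flags about 1 in 20. Many of these probe sets were named for a low p or a large fold change in the same rats, so that rate does not hold here. In 10 of the 120 tests the gap from the farthest rat to its neighbour, as a share of the whole range, passed Dixon's critical value. Rat 2 was the distant one for Xist, with a gap of 0.912 (1374684_at, log2 values 7.65 and 4.42) and of 0.914 (1386785_a_at, 5.14 and 4.39). The same rat had gaps of 0.611 for Cyssl2, 0.537 for Atf4, 0.589 for Camk1g, 0.566 for Rps6 and 0.563 for Bcas1, a gene of oligodendrocytes. Cnih2 had a gap of 0.894 for rat 1 (7.21 and 11.73). Kiaa1958 had a gap of 0.560 for rat 8, and Ano2, a calcium-activated chloride channel, one of 0.543 for rat 3.

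The difference between permethrin 1 mg/kg and vehicle itself differed between the array groups for 3 named genes by the interaction term in limma. The adjusted p was 0.0202 for Cnih2 (-2.72 in the 14-array group and 0.02 in the 46-array group), 0.00178 for Atp2a2 (-0.49 and 0.01) and 0.0494 for Gabbr2, a GABA-B receptor subunit (-0.65 and 0.02). Each rests on 2 permethrin and 2 vehicle rats in the 14-array group.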

How the results depend on the processing

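The count of probe sets with an adjusted p under 0.05 between permethrin 1 mg/kg and vehicle stayed at 0 in every alternative run except with the first component of the residuals as covariate, which gave 29 (and 3139 unadjusted). That covariate has a mean of 0 in each treatment, so it leaves the fold changes as they are and only lowers the residual spread. The unadjusted count of 367 was 199 with only the 20 arrays, 153 among the 15521 brighter probe sets, 145 with 1 probe set per gene and 76 by the Dunnett comparison that the methods name. A block for the array group gave 788, the 14-array group alone 2313 and array weights 1628. Chosen after seeing the data, the split of 24 and 36 arrays, which has the sizes of the cohorts, gave 988 as a block and 2260 within the 24 arrays, and the first component of the deposited values gave 977. The causes were not tested. Leaving out 1 rat gave 221 to 954. The count moved by over 1.5 times without vehicle rat 1 (235) or 4 (733) and without permethrin rat 1 (226), 2 (221), 3 (954), 6 (656) or 8 (663).

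With the replicate number as a block the unadjusted count was 2463 against vehicle (0 adjusted) and 508 against 100 mg/kg. Same-numbered rats of both groups deviated with correlations of -0.74 to 0.76, 4 of 8 over 0.1, and 2 of 8 correlated best with their own number, so the numbers were not taken as pairs.

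Against 10 mg/kg the unadjusted count of 782 became 1803 under an array group block and 526 to 1210 with 1 rat left out. Against 100 mg/kg that of 336 was 762 and 286 to 541, and the adjusted count was 0 to 1. The difference in spread was -0.000183 within array groups, and 0.00282 to 0.0694 with 1 permethrin 1 mg/kg rat left out. Vehicle rats were not left out of this comparison. The interaction count of 116 was 32 with only the 20 arrays, and 3 to 309 with 1 of its 4 small-group arrays left out. Among the 49 named probe sets with an unadjusted p under 0.05, signs turned for Nr4a3 (0.00396), Xist (-0.00536), Cnih2 (0.019) and Rps6 (0.000627) within the 36 arrays, for Cnih2 (0.0195) within the 46-array group, and for Avp within the 14-array group (-0.73) and the 24 arrays (-0.15). Among the other named probe sets there were 60 further sign changes.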
